A study of Mus musculus with 10 samples.

Results

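The genes described are the chemokines and the chemokine receptors of mouse oesophagus: the rows of a deposited count table named Ccl, Cxcl, Ccr or Cxcr plus a number, together with Cx3cl1, Cx3cr1, Xcl1 and the atypical receptors Ackr1 to Ackr4. The rule found 63 of the table's 22740 protein-coding rows, with 59 gene symbols, because Ccl25, Ackr4 and Ccl21c each hold more than 1 row. Of these rows, 41 were ligands, 18 were signalling receptors and 4 were atypical receptors. Enough reads for a test were found for 40 of them, among 13731 genes tested in the whole table: 26 ligands, 11 receptors and 3 atypical receptors. No row found by the rule was named Cxcl11 or Ackr1.

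Chemokines are small secreted proteins that bind to glycosaminoglycans on cell surfaces and draw leukocytes along their gradient. Their receptors are G protein-coupled receptors carried mostly by leukocytes, and each leukocyte type has its own set. Atypical receptors bind chemokines without G protein signalling and remove or redistribute them. In squamous epithelia such as skin and oesophagus, keratinocytes themselves release neutrophil-attracting and Langerhans cell-attracting chemokines when the tissue is irritated or wounded.

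RNA was measured in the oesophagus of 10 mice of the strain C57BL/6, all of which had received 4-NQO, a chemical carcinogen used to raise squamous tumours in the mouth and oesophagus of rodents. The Grhl3 KO group held 5 mice in which the gene of Grhl3, a transcription factor of surface epithelia, was knocked out, and the wild-type group held 5. The Grhl3 KO libraries are labelled as oesophageal tumour tissue and the wild-type libraries as oesophageal tissue, whereas the design text speaks of tumours from both, so genotype and tissue label cannot be told apart. The series title calls the knockout conditional and the Grhl3 KO columns carry the tag L2Cre; the promoter that drives the Cre and the ages of the mice could not be read from the labels. Libraries are named by group and sample number, and values per library follow one order: 1026, 1027, 1035, 1036 and 1043 for Grhl3 KO, then 1028, 1048, 1528, 1555 and 1561 for wild type. The design text counts 5 mice of each genotype, so each library is taken as 1 mouse. The p-values of the group tests set the difference between groups against the variation between libraries within them.

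Depth lay between 15.3 and 32.9 M counts a library, where M is mega, and levels are given as CPM, the counts per M after scaling between libraries. The transcript of Grhl3 was no lower in mice labelled Grhl3 KO, with 135, 234, 191, 235 and 317 CPM in Grhl3 KO mice and 363, 114, 164, 283 and 109 CPM in wild-type mice (log2 fold change 0.11, edgeR adjusted p = 0.979). Directions between the groups therefore rest on the labels. The squamous markers Krt5, Krt13 and Trp63 were abundant in every library, at 442 to 535 CPM for Trp63 in Grhl3 KO mice and 463 to 647 CPM in wild type. The Y-linked gene Eif2s3y lay at 71.0 to 75.6 CPM in the Grhl3 KO libraries. In wild type it lay at 69.2 and 68.4 CPM in libraries 1028 and 1048, at 0 and 0.0539 CPM in 1528 and 1555 and at 24.9 CPM in 1561. Those 3 last libraries also form the only 15xx sample numbers, whose meaning the labels do not give, so sex and number series differ within the wild-type group and not within Grhl3 KO. Kdm5d and Uty, also Y-linked, were intermediate in 1561 too, at 10.35 and 7.953 CPM. Whether library 1561 holds RNA of 1 mouse alone was not tested.

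No chemokine or receptor passed the test between Grhl3 KO and wild type. By edgeR's quasi-likelihood test, 0 of the 40 members had an adjusted p under 0.05, against 11 of 13731 genes (0.0801%), and 0 had an unadjusted p under 0.05, against 983 genes (7.16%). DESeq2 and limma voom likewise called 0 members, at an adjusted or an unadjusted p under 0.05. The smallest adjusted p among members was 0.724, for Cxcl3. In no member did the 5 Grhl3 KO libraries all lie above or all below the 5 wild-type libraries, which was so for 186 of all genes tested (1.35%). The fitted fold change was above 0 for 23 members and below 0 for 17, with a median of 0.05 on the log2 scale beside a median of -0.001 over all genes tested. Ligands were fitted higher in Grhl3 KO in 12 cases and lower in 14 (median -0.04), receptors higher in 8 and lower in 3 (median 0.22), and the 3 atypical receptors higher (median 0.66), with Ackr3 turning to -0.01 and -0.02 under 2 other scalings.

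Sizeable changes lie within the limits of these tests. The 95% limits of a member's log2 fold change reached a median of 1.03 to either side, against 0.358 for all genes tested. For 11 members the limits stayed within a 2-fold change in either direction, which held for 79.7% of all genes tested.

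**Figure D1:**
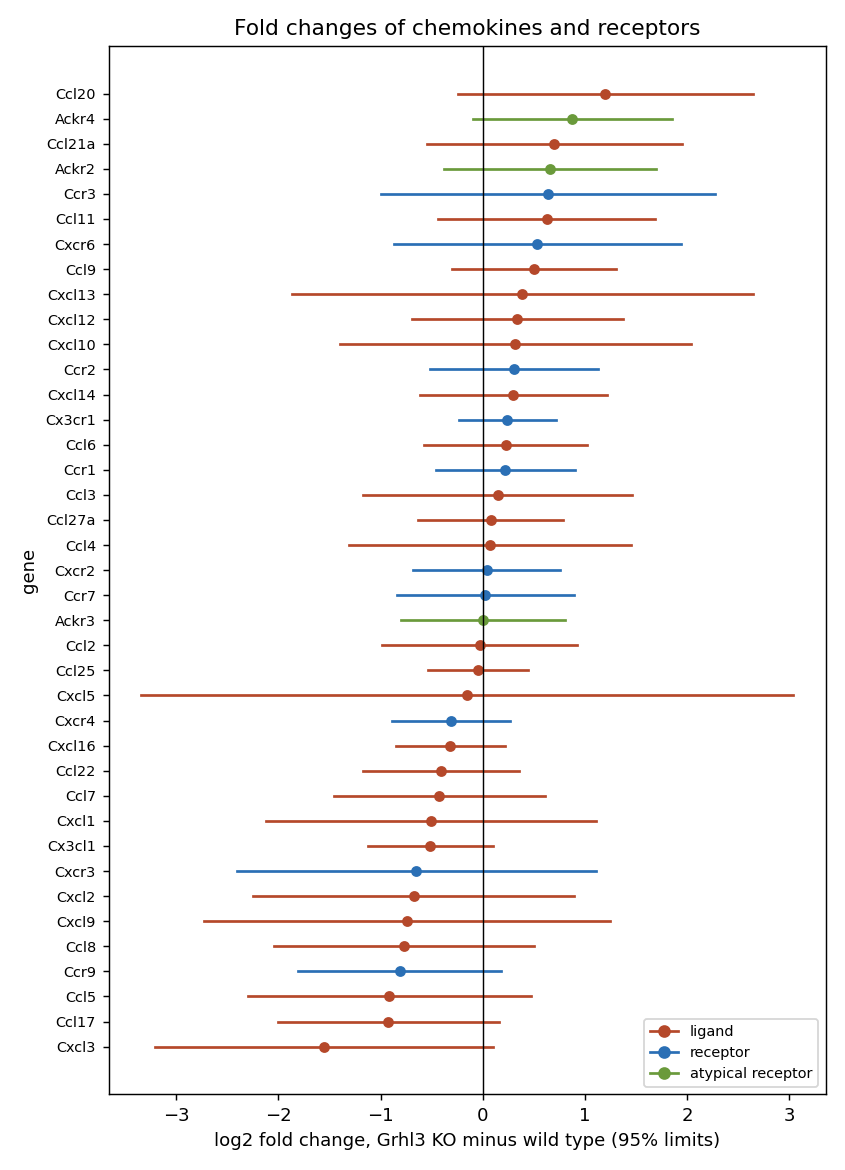
Log2 fold change, Grhl3 KO minus wild type (x axis), of 39 chemokine and receptor genes (y axis, ordered by fold change). Points are edgeR estimates, bars are 95% limits and colours mark ligands, receptors and atypical receptors. Every bar crosses 0, and the widest, of Cxcl5, runs from -3.34 to 3.03.

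Values of the members were spread between libraries far more widely than those of most genes. The SD of log2 CPM over the 10 libraries had a median of 0.805 among members, against 0.263 among all genes tested, and 39 of the 40 members lay above that all-gene median. The exception was Ccl25, a ligand best known from thymus and small intestine, which was low and even at 1.46 to 2.59 CPM in Grhl3 KO mice and 1.75 to 2.42 CPM in wild type. The highest library exceeded the lowest by a median of 6.26 times for members and 1.79 times for all genes. The members' median SD was above that of all genes in each band of mean level. Among the 9 members with a mean of at least 20 CPM the median SD was 1.04, against 0.196 for the 7675 genes of that band, and 8 of the 9 lay above the 90th percentile of the band. Among the 13 members at 5 to 20 CPM it was 0.633, against 0.306 for their band, with 5 above its 90th percentile. Among the 18 members under 5 CPM it was 0.830, against 0.578, with 4 above the 90th percentile. The spread was present inside each group, with a median SD of 0.635 within Grhl3 KO mice and 0.805 within wild type, where all genes had 0.216 within Grhl3 KO and 0.279 within wild type.

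**Figure D2:**
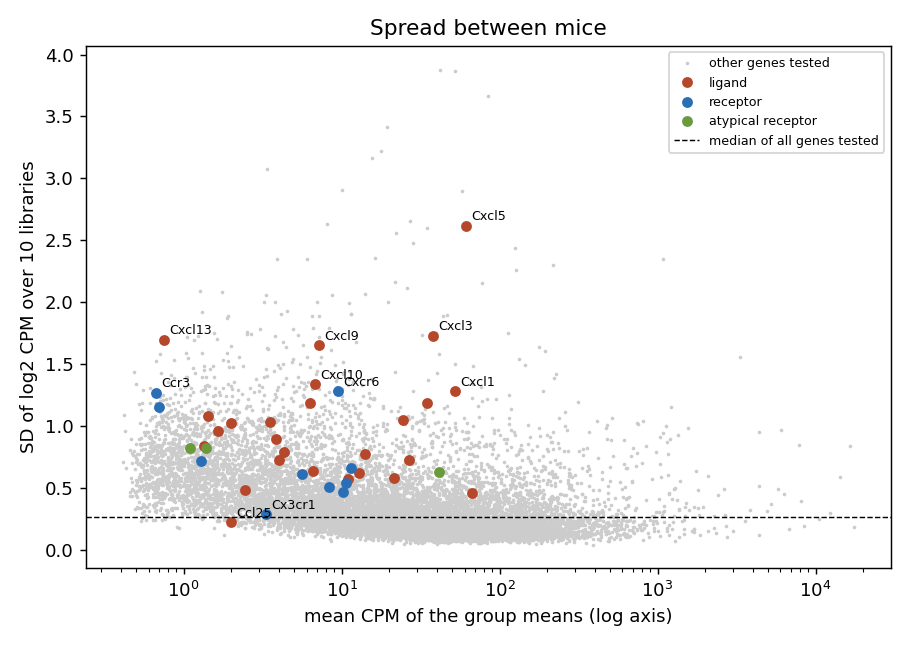
SD of log2 CPM over the 10 libraries (y axis) against mean level (x axis, log scale) for 39 members (coloured) and all other genes tested (grey). The dashed line is the median of all genes tested, 0.263. Cxcl5, Cxcl3, Cxcl9 and Cxcl1 stand high among genes of their level, and Ccl25 is the single member under the line.

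In levels per kb of exon, which allow genes to be compared roughly, the 6 highest members were ligands. Exon length joins the exons of all annotated transcripts of a gene, so exons unused in this tissue lower its value. At the top were Cxcl5 at 31.1 ± 56.9 CPM per kb in Grhl3 KO mice and 34.7 ± 65.2 in wild type, and Cxcl1 at 23.0 ± 14.1 in Grhl3 KO mice and 32.6 ± 38.7 in wild-type mice (SD, n = 5 each). Ccl2 had 23.3 ± 15.9 CPM per kb in Grhl3 KO mice and 23.8 ± 10.6 in wild type. Ccl11 had 27.4 ± 9.92 CPM per kb in Grhl3 KO mice and 17.8 ± 11.2 in wild type, and Cxcl16 had 19.8 ± 6.35 in Grhl3 KO mice and 24.7 ± 6.27 in wild type. The highest receptor was the atypical receptor Ackr3, at 12.3 ± 4.64 CPM per kb in Grhl3 KO mice and 12.3 ± 6.33 in wild type. Among signalling receptors the order over all 10 libraries was Cxcr4 (5.66 CPM per kb), Cxcr6 (4.94), Cxcr2 (3.51), Ccr1 (2.94) and Ccr7 (2.82). No 2 neighbours in the order of all 40 members differed beyond their SD, so single ranks carry little weight. At the low end stood Ccr9 with 0.126, Ccr3 with 0.204 and Ackr4 with 0.258 CPM per kb. The joined exons of Ccr9 sum to 10260 bases. In mean CPM it stood above Ccr3, at 0.934 beside 0.806 in Grhl3 KO mice and 1.65 beside 0.527 in wild type.

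**Figure D3:**
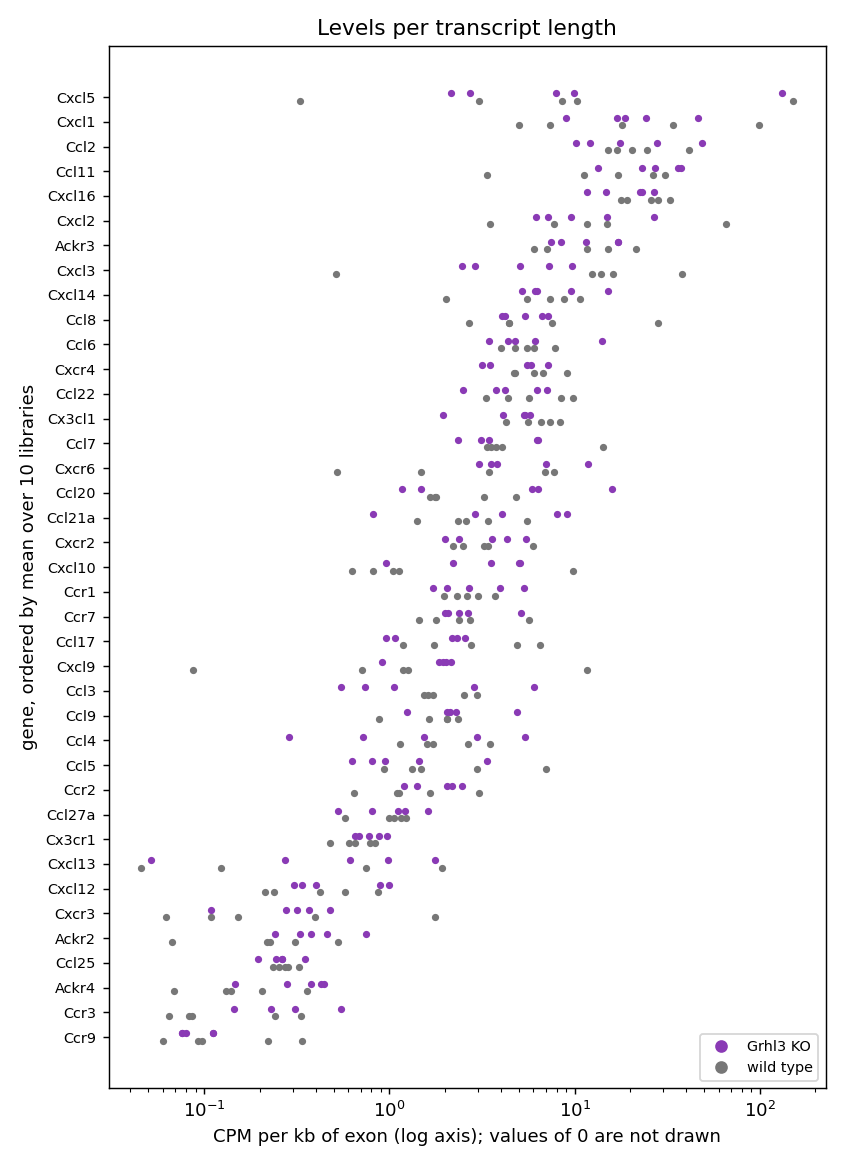
Level per kb of exon in each library (x axis, log scale) of 39 members (y axis, ordered by the mean over 10 libraries), with Grhl3 KO drawn above wild type in each line. The groups overlap in every line, and the libraries of Cxcl5 run from 0.329 to 151 CPM per kb.

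The neutrophil attractants were among the most abundant and the most uneven ligands. Cxcl1, Cxcl2, Cxcl3 and Cxcl5 are ligands of Cxcr2, the receptor that brings neutrophils out of the blood. They lie together on the plus strand of chromosome 5 (GRCm38, 90759360 to 90905938). The bases before the start sites of Cxcl1, Cxcl2 and Cxcl3 are shown because these neighbours bind the same receptor, varied widely between libraries and share a stretch there. They come from RefSeq (GRCm38.p6), each 120 bases, plus strand, 5′ to 3′, and capitals mark matches to the NF-kappaB motif GGGANNTTC on either strand, which overlap in these genes.

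Cxcl1 (chr5:90891125-90891244): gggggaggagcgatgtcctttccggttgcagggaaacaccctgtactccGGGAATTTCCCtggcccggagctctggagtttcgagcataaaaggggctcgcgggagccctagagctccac
Cxcl2 (chr5:90903779-90903898): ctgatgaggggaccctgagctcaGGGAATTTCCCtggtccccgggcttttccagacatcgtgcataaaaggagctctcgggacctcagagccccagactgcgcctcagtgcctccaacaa
Cxcl3 (chr5:90785981-90786100): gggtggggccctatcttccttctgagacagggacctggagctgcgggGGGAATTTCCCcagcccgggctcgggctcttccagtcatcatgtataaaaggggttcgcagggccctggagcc

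The same 11 letters, GGGAATTTCCC, stand 71, 97 and 73 bases before the start of Cxcl1, Cxcl2 and Cxcl3. Windows from 250 bases before to 50 after the start were found in the table for 30 of the 40 members tested, in 33 promoters, and 7 of these hold the motif (21.2%), against 3.94% of 32851 promoters. The 7 genes are Cxcl1, Cxcl2, Cxcl3, Cxcl9, Cxcl10, Cxcr2 and Ccr3. Among the tested members without a window were Cxcl5, Cxcl16, Ccl2, Ccl4, Ccl5, Ccl7, Ccl11, Ccr7 and Ackr4, so the motif was not looked for there. Such a match is a description of letters and says nothing about binding in these mice.

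Cxcl5, released by epithelial cells, had 18.6, 5.06, 14.7, 247 and 4.00 CPM in Grhl3 KO mice and 0.613, 15.9, 281, 19.2 and 5.69 CPM in wild type. In each group 1 library, Grhl3 KO 1036 or wild type 1528, stood more than 10-fold above the others, and the groups overlapped throughout (log2 fold change -0.15, SE 1.45, edgeR adjusted p = 0.992). Leaving out Grhl3 KO 1036 gave -2.62 and leaving out wild type 1528 gave 2.49, so the sign rests on single libraries.

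Cxcl2 and Cxcl3 followed in part. Cxcl3 (chromosome 5, 90786103 to 90789600), the member of smallest p, had 8.68, 17.7, 25.3, 34.1 and 10.2 CPM in Grhl3 KO mice and 1.79, 48.7, 133, 43.4 and 56.5 CPM in wild type. Of the 5 wild-type libraries, 4 lay above every Grhl3 KO library, and wild type 1028 lay below them all. The log2 fold change was -1.55 (SE 0.75, edgeR adjusted p = 0.724); it was -1.87 without wild type 1028 (adjusted p = 0.280) and -0.39 within the 7 libraries of the 10xx number series (adjusted p = 0.968). Cxcl2 had 31.0, 19.8, 12.8, 55.9 and 14.8 CPM in Grhl3 KO mice and 7.26, 16.1, 137, 30.8 and 24.1 CPM in wild type, again highest in Grhl3 KO 1036 and wild type 1528. Near-identical stretches shared by Cxcl2 and Cxcl3 cover 5.62% and 3.32% of their exons, so reads from those stretches are uncertain.

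Cxcl1 was highest elsewhere, with 86.7, 45.4, 31.7, 35.0 and 17.0 CPM in Grhl3 KO mice and 9.38, 33.7, 13.8, 63.7 and 185 CPM in wild type. Grhl3 KO 1026 and wild type 1561 led, and the libraries that led for Cxcl5 did not. The receptor Cxcr2 was far more even, at 6.10, 7.23, 10.9, 16.7 and 13.2 CPM in Grhl3 KO mice and 10.4, 6.74, 9.86, 18.2 and 7.62 CPM in wild-type mice (log2 fold change 0.04, SE 0.33, edgeR adjusted p = 0.992). Stretches near-identical to other genes cover 6.89% of the Cxcr2 exons, so reads from there are uncertain. All 4 tested ligands of the chromosome 5 group had fold changes below 0, with a median of -0.59, but within the 10xx libraries Cxcl5, Cxcl2 and Cxcl1 turned to 2.83, 1.21 and 1.0.

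Other genes were high in the same libraries. Ppbp, a further Cxcr2 ligand outside the naming rule, had 138 CPM in Grhl3 KO 1036 beside 265 CPM in wild type 1528, where the remaining libraries ran from 7.76 to 68.0 in Grhl3 KO mice and from 2.64 to 146 in wild type. The neutrophil marker Csf3r was also highest in these 2 libraries, at 34.1 CPM in Grhl3 KO 1036 beside 17.8 CPM in wild type 1528, with 3.88 to 14.3 in the other Grhl3 KO libraries and 3.58 to 11.2 in the other wild-type libraries. Retnlg, another neutrophil marker, reached 5.59 CPM in Grhl3 KO 1036 beside 3.11 CPM in wild type 1528, while wild type 1561 had 3.58. Ly6g stayed at 0 in every library but 1. The summed neutrophil list, at 7569 to 11190 CPM in Grhl3 KO mice and 3118 to 23290 CPM in wild type, was nearly all S100a8 and S100a9, which squamous epithelium also makes. This sum was highest among Grhl3 KO mice in 1036, but wild type 1528 had 3442 CPM, near the minimum. Its maximum of 23290 CPM was in wild type 1028, the lowest library for Cxcl1, Cxcl2, Cxcl3 and Cxcl5. The part of neutrophil number in these ligand levels was not tested. In bulk tissue fewer cells of a type and less RNA per cell cannot be told apart.

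**Figure D4:**
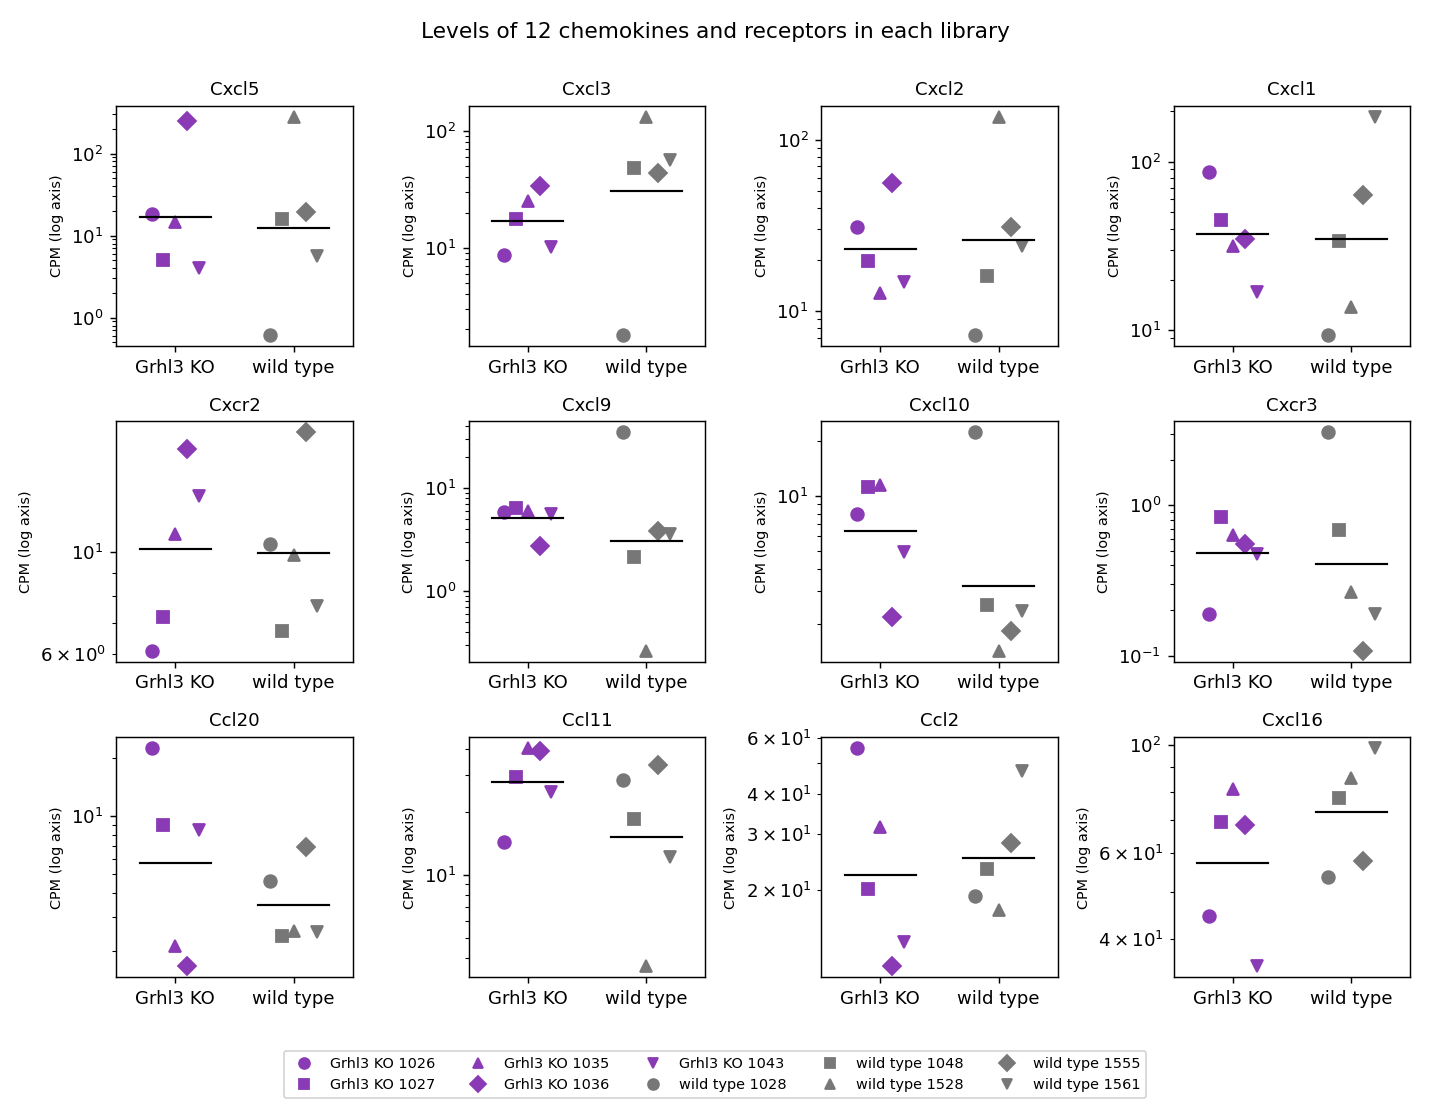
CPM in each library (y axis, log scale) of 12 chemokines and receptors, with Grhl3 KO left and wild type right; symbols mark single libraries and bars geometric means. Cxcl5 peaks at 247 CPM in Grhl3 KO 1036 beside 281 CPM in wild type 1528, Cxcl10 at 22.2 in wild type 1028, and the groups overlap in all 12 panels.

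The interferon-induced ligands Cxcl9 and Cxcl10, which attract activated T cells and NK cells through Cxcr3, peaked in another mouse. The 250 bases before their starts are printed because both hold the interferon-type element GAAANNGAA together with an NF-kappaB match, all in capitals. They lie on the minus strand of chromosome 5 (RefSeq, GRCm38.p6) and are written 5′ to 3′.

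Cxcl9 (chr5:92328080-92328329): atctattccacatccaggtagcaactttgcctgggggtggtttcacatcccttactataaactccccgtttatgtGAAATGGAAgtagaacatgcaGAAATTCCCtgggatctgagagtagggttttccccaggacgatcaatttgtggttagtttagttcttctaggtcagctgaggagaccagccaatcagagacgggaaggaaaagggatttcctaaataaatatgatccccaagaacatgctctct
Cxcl10 (chr5:92348890-92349139): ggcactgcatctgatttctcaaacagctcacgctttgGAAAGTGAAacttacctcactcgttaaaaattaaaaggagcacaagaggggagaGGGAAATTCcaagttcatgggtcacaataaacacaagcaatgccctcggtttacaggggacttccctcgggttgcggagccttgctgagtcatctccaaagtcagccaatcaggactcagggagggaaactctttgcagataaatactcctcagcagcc

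The element GAAANNGAA stood in 5 of the 33 member promoters (15.2%), those of Ccl3, Ccr2, Cxcl9, Cxcl10 and Cxcl14, against 8.56% of all promoters, and the AP-1 motif TGANTCA likewise in 5, against 7.81%. Cxcl9 had 5.91, 6.46, 6.07, 2.76 and 5.61 CPM in Grhl3 KO mice and 35.0, 2.16, 0.264, 3.83 and 3.58 CPM in wild type. Cxcl10 had 7.99, 11.2, 11.5, 2.166 and 4.96 CPM in Grhl3 KO mice and 22.2, 2.53, 1.42, 1.83 and 2.35 CPM in wild type. For both, wild type 1028 was the highest of all libraries and the other 4 wild-type libraries lay below 4 of the 5 Grhl3 KO libraries.

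Their receptor Cxcr3 was low, with 0.189, 0.832, 0.636, 0.552 and 0.478 CPM in Grhl3 KO mice and 3.07, 0.685, 0.264, 0.108 and 0.188 CPM in wild type, again highest in wild type 1028. The log2 fold changes were -0.75 for Cxcl9, 0.32 for Cxcl10 and -0.65 for Cxcr3 (SE 0.90, 0.78 and 0.80). Without wild type 1028 they were 1.12, 1.89 and 0.81, and the edgeR adjusted p for Cxcl10 was 0.280. Within the 10xx libraries, where wild type is 1028 and 1048 alone, they were -1.79, -0.70 and -1.76.

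Wild type 1028 was the highest of the 10 libraries for 12 of the 40 members (30.0%), and for 14.6% of all genes tested. Among the 12 were the inflammatory ligands Ccl5 at 6.70 CPM and Ccl8 at 14.4 CPM, where Grhl3 KO libraries had 0.607 to 3.23 and 2.08 to 3.67 CPM and the other wild-type libraries 0.894 to 2.86 and 1.37 to 3.88 CPM. The same library had the highest summed T cell markers, 81.7 CPM, against 30.3 to 40.9 in Grhl3 KO mice and 21.1 to 41.0 in the other wild-type libraries. Its summed pan-leukocyte markers (Ptprc and others) reached 153 CPM, against 68.0 to 97.3 in Grhl3 KO mice and 48.8 to 93.1 in the rest of wild type. The library was highest for other marker lists too, with 7.83 CPM for B and plasma cells (0.512 to 1.04 in Grhl3 KO mice and 0.263 to 1.32 in the rest of wild type) and 200.5 CPM for blood endothelium (99.3 to 165.5 in Grhl3 KO mice and 66.5 to 136.5 in the rest of wild type). Its squamous epithelium list summed to 117200 CPM, against 54910 to 72810 in Grhl3 KO mice and 46750 to 71430 in the rest of wild type. Its dendritic cell list was instead the lowest, at 168.9 CPM. Grhl3 KO mice had 175.0 to 286.5 CPM for that list and the rest of wild type 243.8 to 321.5. The sum in wild type 1028 was mostly Fscn1 (121.6 CPM). The dendritic cell markers Cd207 and Flt3 were highest in this library, at 18.8 and 5.99 CPM. The other defining marker of that list, Zbtb46, had 2.075 CPM there and was highest in Grhl3 KO 1027, at 2.208 CPM. The part of this makeup in the chemokine levels of the library was not tested beyond the pan-leukocyte covariate. Wild type 1028 was also the lowest library for Cxcl1, Cxcl2, Cxcl3 and Cxcl5, the neutrophil attractants. Wild type 1528 was lowest for 9 members (22.5%), and for 12.8% of all genes, among them Cxcl9, Cxcl10, Ccl11 and Cxcr6.

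**Figure D5:**
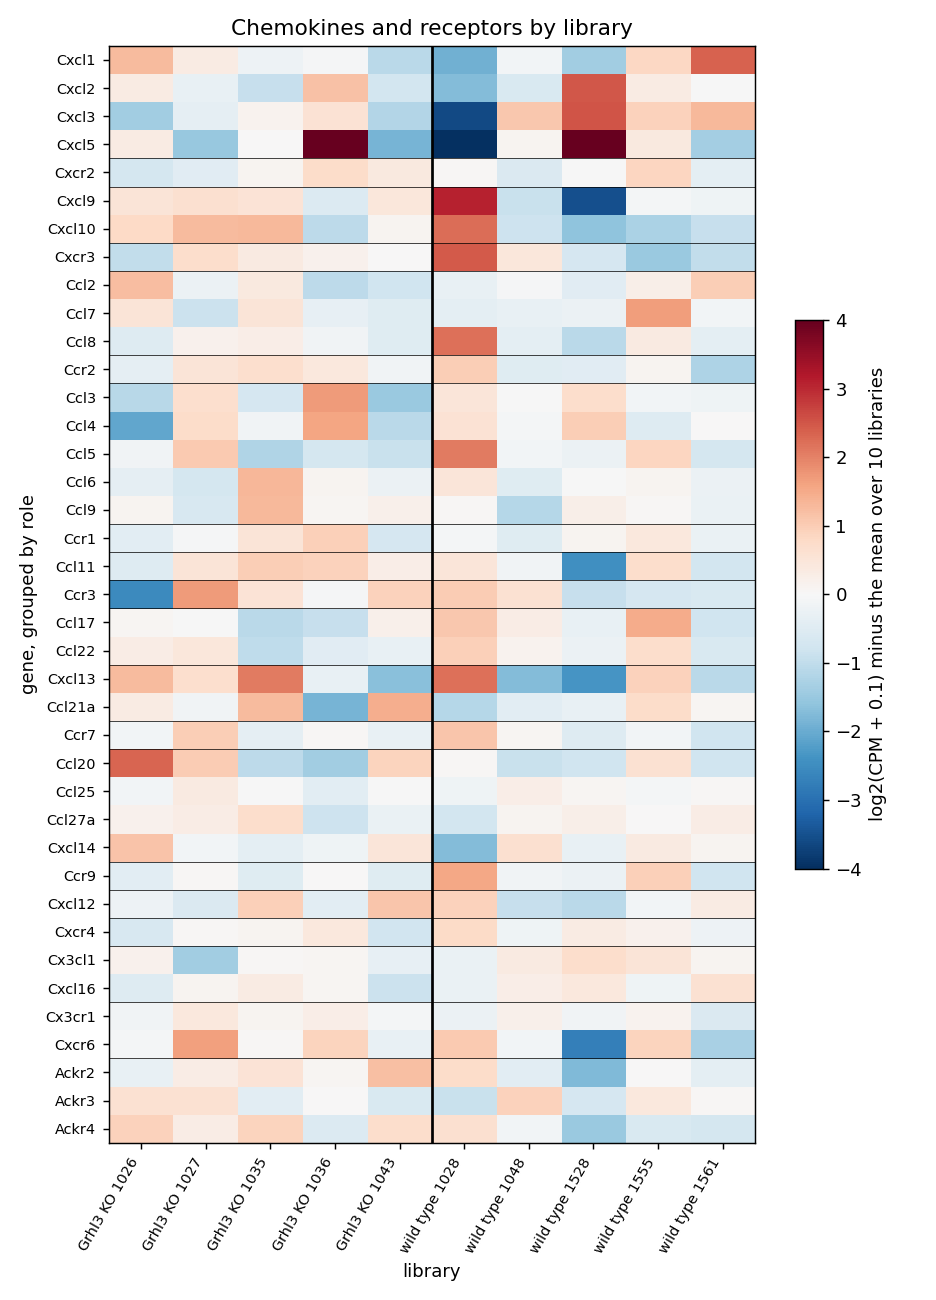
Log2(CPM + 0.1) of 39 members minus each member's mean over 10 libraries (colour), with Grhl3 KO columns left of the black line and wild type right, and genes grouped by role. Cxcl2 and Cxcl5 are high in Grhl3 KO 1036 and wild type 1528, and Cxcl3 is high in wild type 1528. Cxcl9, Cxcl10, Cxcr3, Ccl5 and Ccl8 are high in wild type 1028.

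Monocyte attractants were spread in yet another way. Ccl2, the main ligand of the monocyte receptor Ccr2, had 55.7, 20.1, 31.5, 11.5 and 13.7 CPM in Grhl3 KO mice and 19.2, 23.2, 17.3, 28.1 and 47.3 CPM in wild type, with a log2 fold change of -0.03 (SE 0.43, edgeR adjusted p = 0.992). Grhl3 KO 1026 and wild type 1561 were highest, as for Cxcl1. Ccl7 and Ccl8 had fold changes of -0.43 and -0.77, and Ccr2 had 0.30 with 8.11 to 16.7 CPM in Grhl3 KO mice and 4.38 to 20.6 CPM in wild type. The inflammatory ligands Ccl3, Ccl4, Ccl5, Ccl6 and Ccl9, which attract monocytes and T cells, had fold changes of 0.14, 0.07, -0.92, 0.22 and 0.50, and none passed the test. That of Ccl5 was -0.20 without wild type 1028 and -1.54 without Grhl3 KO 1027, and that of Ccl9 was 0.11 without Grhl3 KO 1035. Stretches near-identical to other genes cover 5.46% of the Ccl9 exons, so reads from there are uncertain. Ccr1, carried by monocytes and neutrophils, had 5.79, 7.65, 11.2, 15.2 and 4.90 CPM in Grhl3 KO mice and 7.40, 5.58, 8.49, 10.6 and 6.59 CPM in wild type.

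Ccl20, the epithelial ligand of Ccr6 that attracts Langerhans cell precursors and Th17 cells, had the largest positive fold change (chromosome 1, 83116766 to 83119167). Its level was 22.6, 9.03, 2.11, 1.65 and 8.42 CPM in Grhl3 KO mice and 4.62, 2.37, 2.53, 6.90 and 2.49 CPM in wild type. Of the Grhl3 KO libraries 3 lay above every wild-type library and 2 below every one. The log2 fold change was 1.2 (SE 0.66, edgeR adjusted p = 0.766), and 0.48 without Grhl3 KO 1026. Ccl20 and Cxcl3 were the members with a log2 fold change of at least 1 in size, reached by 2.64% of all genes tested.

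Of the other epithelial ligands, Cxcl14, which keratinocytes make constitutively, ran from 9.54 to 27.7 CPM in Grhl3 KO mice and from 3.68 to 19.4 CPM in wild-type mice (log2 fold change 0.30). Ccl27a, a skin ligand of Ccr10, had 1.26 to 3.84 CPM in Grhl3 KO mice and 1.37 to 2.92 CPM in wild type, but its whole transcript matches other genes nearly identically, so its counts are uncertain. The same holds for Ccl21a, a ligand of Ccr7 made by lymphatic vessels.

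Ccl11 (eotaxin), the ligand of the eosinophil receptor Ccr3, was among the higher ligands. It had 14.4, 29.3, 40.4, 39.2 and 25.0 CPM in Grhl3 KO mice and 28.5, 18.5, 3.64, 33.5 and 12.2 CPM in wild-type mice (log2 fold change 0.63, SE 0.48, edgeR adjusted p = 0.851). Wild type 1528 was far below the rest. Ccr3 itself lay at 0 to 1.79 CPM in Grhl3 KO mice and 0.211 to 1.08 CPM in wild type. The eosinophil marker Epx was at 0 in every library and the summed eosinophil list stayed under 1 CPM, at 0 to 0.239 in Grhl3 KO mice and 0.105 to 0.660 in wild type. Ccl17 and Ccl22, ligands of Ccr4 on type 2 and regulatory T cells, had fold changes of -0.93 and -0.41, with 0.491 to 1.31 and 5.78 to 16.5 CPM in Grhl3 KO mice and 0.612 to 3.34 and 7.77 to 22.9 CPM in wild type. Without wild type 1555 the fold change of Ccl17 was -0.57, and without wild type 1028 that of Ccl22 was -0.20.

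Cxcl16 and Cx3cl1 are made as membrane-bound proteins and shed by proteases. Cxcl16 was the most even of the abundant ligands, with 44.7, 69.6, 81.3, 68.5 and 35.1 CPM in Grhl3 KO mice and 53.6, 77.9, 85.7, 57.8 and 98.6 CPM in wild-type mice (log2 fold change -0.32, SE 0.24, edgeR adjusted p = 0.848). Its receptor Cxcr6, on tissue-resident T cells, had 6.79, 22.8, 7.40, 13.5 and 5.91 CPM in Grhl3 KO mice and 15.04, 6.69, 1.0, 13.4 and 2.87 CPM in wild type. Cx3cl1 ran from 7.65 to 22.6 CPM in Grhl3 KO mice and from 16.8 to 32.9 CPM in wild type, and its log2 fold change of -0.51 (SE 0.28, edgeR adjusted p = 0.763) had 95% limits of -1.12 and 0.10. Cx3cr1, its receptor on macrophages, had 2.96 to 4.39 CPM in Grhl3 KO mice and 2.165 to 3.79 CPM in wild type.

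The homing ligands Cxcl12 and Cxcl13 and the receptor Ccr9 were low per length, at 0.526, 0.653 and 0.126 CPM per kb over all libraries. The homing receptors Cxcr4 and Ccr7 stood higher, at 5.66 and 2.82 CPM per kb. Cxcl12 has a long joined exon length of 8176 bases. Its mean CPM was nearer to that of Ccr7, at 4.80 beside 5.62 in Grhl3 KO mice and 3.79 beside 5.54 in wild type. Cxcl12, made by stromal cells and bound by Cxcr4, had 2.50 to 8.18 CPM in Grhl3 KO mice and 1.74 to 7.12 CPM in wild type. Cxcr4 had 6.29, 10.02, 10.5, 13.0 and 5.73 CPM in Grhl3 KO mice and 16.6, 8.64, 12.2, 10.9 and 8.47 CPM in wild-type mice (log2 fold change -0.31, SE 0.26, edgeR adjusted p = 0.871). Ccr7, which takes dendritic cells and T cells to lymph nodes, had 4.72, 10.1, 3.93, 5.24 and 4.12 CPM in Grhl3 KO mice and 11.2, 5.37, 3.53, 4.69 and 2.87 CPM in wild type. Cxcl13, the B cell attractant of lymphoid follicles, ran from 0.0597 to 2.02 CPM in Grhl3 KO mice and from 0 to 2.22 CPM in wild type. Ccr9, the receptor of Ccl25, ran from 0.776 to 1.15 CPM in Grhl3 KO mice and from 0.612 to 3.44 CPM in wild type.

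Among atypical receptors, Ackr3, which takes up Cxcl12, had 57.4, 57.5, 28.2, 38.4 and 25.0 CPM in Grhl3 KO mice and 20.2, 72.2, 23.8, 50.6 and 39.3 CPM in wild type, with a log2 fold change of 0.00 (95% limits -0.80 and 0.80). Ackr4, which takes up Ccl19, Ccl21 and Ccl25, had 2.39, 1.504, 2.31, 0.788 and 2.03 CPM in Grhl3 KO mice and 1.93, 1.11, 0.369, 0.755 and 0.706 CPM in wild type. Its log2 fold change was 0.88 (SE 0.44, edgeR adjusted p = 0.739), and 0.24 within the 10xx libraries. Ackr2, a scavenger of inflammatory Ccl ligands, ran from 0.755 to 2.33 CPM in Grhl3 KO mice and from 0.211 to 1.65 CPM in wild-type mice (log2 fold change 0.66).

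The remaining 23 rows did not pass the low-count filter. Of these, 8 were at 0 in every library: Ccl21b, the 3 rows of Ccl21c, Ccl26, Ccl27b and the second rows of Ackr4 and Ccl25, which have no GENCODE position. The other 15 held between 1 and 105 counts summed over all libraries. Ccl12, Ccr6, Ccr8, Ccl28, Ccr4, Cxcr5 and Ccr1l1 had sums of 105, 100, 83, 76, 71, 65 and 58 counts. Ccl24, Ccl1, Ccr10, Xcl1, Cxcr1, Ccl19, Cxcl17 and Cxcl15 had 36, 25, 23, 22, 21, 9, 8 and 1. The receptors of Ccl20 (Ccr6), Ccl17 and Ccl22 (Ccr4) and Ccl27a (Ccr10) are thus among the genes that the low-count filter removed. Near-identical stretches of other genes cover 100% of the exons of Ccl21b and Ccl27b and 88.9% of those of Ccl19. The counts of these genes are therefore uncertain.

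Genes of the family lie in clusters. The chromosome 9 receptors Cxcr6, Ccr1, Ccr3 and Ccr2 had fold changes of 0.53, 0.22, 0.63 and 0.30, with Ccr3 at -0.18 and Ccr2 at -0.15 within the 10xx libraries, and their neighbour Ccr9 had -0.81. On chromosome 8 (GRCm38, 94745590 to 94812036) stand Ccl22, Cx3cl1 and Ccl17, all with fold changes below 0 (median -0.51). The Ccl ligands of chromosome 11 form 2 groups, one of Ccl2, Ccl7, Ccl11 and Ccl8 with 1 above 0 and 3 below, and one of Ccl5, Ccl9, Ccl6, Ccl3 and Ccl4 with 4 above 0 and 1 below. No member of these clusters passed the test.

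Across the 10 libraries, levels of ligands and receptors were compared for textbook pairs. Of 30 pairs listed, 21 had both partners tested, and after Benjamini-Hochberg adjustment over the 21 none passed by Pearson's r or Spearman's rho (permutation test, 100000 resamples). The strongest was Cxcl10 with Cxcr3 (r = 0.70, permutation p = 0.0205, adjusted 0.421; rho = 0.67, permutation p = 0.0391, adjusted 0.641). Its r was 0.38 without Grhl3 KO 1035 and wild type 1028, the libraries farthest from the median of Cxcl10. It was 0.50 within the 7 libraries of the 10xx series, which hold both of them. The permutation p was 0.337 over the 8 libraries and 0.243 over the 7. Ccl3 with Ccr1 had r = 0.65 (permutation p = 0.0420, adjusted 0.421; rho = 0.55, permutation p = 0.104), with r = 0.10 without Grhl3 KO 1036 and 1043 and 0.69 within the 10xx series. Cxcl5 with Cxcr2 had r = 0.25 (permutation p = 0.488; rho = 0.12, permutation p = 0.757). In Cxcl12 with Ackr3, r was -0.56 over all libraries (permutation p = 0.0932; rho = -0.43, permutation p = 0.218) and -0.92 within the 10xx series (adjusted p = 0.313 by permutation).

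No cell type list differed between the groups by its test. The summed levels of 15 marker lists, of neutrophils, macrophages, dendritic cells, lymphocytes, other leukocytes, vessels, stroma, muscle and epithelium, went through an exact two-sided permutation test each, and 0 lists passed with or without adjustment. The smallest adjusted p was 0.833, for the NK cell list, at 1.07 to 3.53 CPM in Grhl3 KO mice and 2.37 to 4.81 CPM in wild type, and for the eosinophil list. The macrophage list stood at 181 to 264 CPM in Grhl3 KO mice and 185 to 240 CPM in wild type. In every library the largest single part came from Fscn1 in the dendritic cell list, Cd5 in the T cell list and Kit in the mast cell list. Fscn1 alone had 157 to 271 CPM in Grhl3 KO mice and 122 to 310 CPM in wild type. None of these genes was listed as a defining marker of its cell type, so the tests of these sums say little about those cells.

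Genes around the chemokine system were described by 4 further lists, in which 0 genes had an edgeR adjusted p under 0.05. Of 24 tested inducers and regulators of inflammatory chemokines (cytokines, their receptors, NF-kappaB or interferon factors, and Atf3), 17 were above 0 and 7 below. Of the 24, 5 had an edgeR unadjusted p under 0.05, all higher in Grhl3 KO (20.8%, against 7.16% of all genes). The list was chosen with earlier results of these data known, so this share is a description and not a test of the list. Rela, the p65 subunit of NF-kappaB, had 89.4, 96.0, 87.4, 87.3 and 89.0 CPM in Grhl3 KO mice and 70.8, 67.7, 76.7, 68.0 and 82.9 CPM in wild type, without overlap (log2 fold change 0.29, SE 0.08, edgeR adjusted p = 0.378). Tslp, an epithelial cytokine of type 2 inflammation, had 8.87, 8.96, 48.6, 36.5 and 62.0 CPM in Grhl3 KO mice and 4.76, 3.69, 1.16, 1.46 and 20.7 CPM in wild-type mice (log2 fold change 2.37, SE 0.83, edgeR adjusted p = 0.548). The other 3 were Il17c, an epithelial cytokine, Atf3, a stress-induced transcription factor, and Il17rc, a receptor subunit for IL-17, with log2 fold changes of 1.88, 0.69 and 0.32.

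Of 25 tested genes of receptor signalling and trafficking, 16 were above 0 and 9 below, and 0 had an unadjusted p under 0.05. Rgs1, which shortens chemokine receptor signals in lymphocytes, had the smallest p of the list (log2 fold change 0.69, edgeR adjusted p = 0.724). Of 11 genes of ligand trimming and glycosaminoglycan display, 4 were above 0 and 7 below; Ext1 and Sdc4, a heparan sulfate polymerase and a heparan sulfate carrier, had -0.47 and -0.25 with unadjusted p under 0.05 and edgeR adjusted p = 0.657 and 0.681. Of 7 chemokine-like genes outside the naming rule, 3 were above 0 and 4 below. Mif, a cytokine that also binds Cxcr2 and Cxcr4, had 116, 120, 121, 125 and 123 CPM in Grhl3 KO mice and 141, 131, 206, 142 and 158 CPM in wild type, without overlap (log2 fold change -0.36, SE 0.12, edgeR adjusted p = 0.478).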

How the data were processed

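The deposited table holds the authors' whole-number counts per protein-coding gene, without normalization. Per the labels' protocols, libraries were made from total RNA with a strand-preserving mRNA kit. The submitters' processing notes name featureCounts and GRCm38; no source used here names the aligner. Columns were joined to samples by the sample number, which left 0 columns unassigned, and 0 rows named no gene.

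Counts were filtered with filterByExpr (minimum count 10, minimum total 15), scaled by TMM and tested with edgeR 4.0.16 (quasi-likelihood F-test, robust) in R 4.3.3 over all 13731 genes, Grhl3 KO minus wild type, with Benjamini-Hochberg adjustment and a threshold of 0.05. The tests were tried on simulated data, with changes put into genes drawn at random from all genes tested. That trial does not show what could be detected in genes as variable as the members. CPM are TMM-scaled, log2 CPM carry a prior count of 2, and the SE of a fold change follows from its F statistic. Marker lists were summed in CPM and compared as log2 (sum + 0.1) over all 252 assignments. Exon lengths, joined over all transcripts of a gene, and positions come from GENCODE M21, promoters from RefSeq. Near-identical stretches (75 bases, 95% identity) were found with blastn 2.17.0.

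Values in every library are given for members with an unadjusted p under 0.05, no overlap of groups or an absolute log2 fold change of at least 1, and for the 5 ligands and 5 receptors of highest level per kb. Those of Cxcl2, Cxcl9, Cxcl10, Cxcr3, Ackr4, Ppbp, Csf3r, Retnlg, Il17rc, Ccl5 and Ccl8 were chosen after their values were seen. The values of 1 tested member are not reported here, although counts over the 40 members include it. Pathway genes are the up to 4 of smallest p. The members, lists and roles were chosen with earlier results of these data known. Alternatives were 2 other scalings, DESeq2 1.42.0, limma voom (limma 3.58.1), no filter, a filter of 1 CPM in 5 libraries, each library left out, the number series, pan-leukocyte and skeletal muscle covariates, and the 10xx libraries alone.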

Additional observations from a re-analysis of the deposited data

Results flagged for a closer look

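Among 80 groups of 5 libraries (the 40 members in Grhl3 KO and in wild type), 5 held a library whose log2 CPM stood apart from the other 4 by Dixon's gap test, which is 6.25% where chance gives about 1 in 20. In wild type 1028, Cxcl3 was low at 1.79 CPM, with 43.4 to 133 CPM in the other wild-type libraries. The same library was high for Cxcl10 at 22.2 CPM, with 1.42 to 2.53 CPM in the other wild-type libraries. It was also low for Ccl27a at 1.37 CPM, with 2.37 to 2.92 CPM in the others, and the counts of Ccl27a are uncertain because of near-identical genes. In Grhl3 KO 1036, Cxcl9 was low at 2.76 CPM, with 5.61 to 6.46 CPM in the remaining Grhl3 KO mice. In wild type 1555, Ccl7 was high at 11.4 CPM, with 2.69 to 3.25 CPM in the other wild-type libraries.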

How the results depend on the processing

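No member had an adjusted p under 0.05 (count of 0) with edgeR or under any of the 20 alternatives, and 15 of 39 members kept the sign of their fold change in all 20. The count over all genes was 11 in edgeR, 119 in DESeq2, 1 in limma voom, 7 with no filter, 1 with the number series as covariate and 1 within the 10xx libraries. Leaving out 1 library gave 1 to 16 genes, with 1 without Grhl3 KO 1027, 1036 or 1043 or wild type 1528, 2 without wild type 1555, 3 without Grhl3 KO 1035 and 7 without wild type 1561. Members with an unadjusted p under 0.05 numbered 0 in edgeR, 4 with no filter (Ccl24, Ccr10, Ccr1l1 and Cxcr5, all of low count), 3 with the number series as covariate (Ccl8, Ccr9 and Cxcr3), 4 within the 10xx libraries (those and Cxcl9) and 3 with the pan-leukocyte covariate (Ackr4, Ccr2 and Ccr9). With the skeletal muscle covariate there was 1, Ccl17. Leaving out 1 library gave 0 to 6 such members, with 6 (Ackr2, Ackr4, Ccr2, Cx3cl1, Cxcl3 and Cxcl10) without wild type 1028 and 3 (Ackr4, Ccl20 and Cxcl3) without Grhl3 KO 1036, 2 without wild type 1561 and 1 each without Grhl3 KO 1027 or 1035. Of 777 recomputed fold changes, 79 changed sign; the cause was not tested. Log2 fold changes that changed sign were Ackr3 -0.01 in DESeq2, Ackr3 -0.01 with its size factors, and Ackr3 -0.02 with library totals. In limma voom they were Ccl3 -0.29, Ccl4 -0.30, Cxcl5 0.58, Cxcl1 0.09, Cxcl9 0.67 and Cxcr3 0.25. With the pan-leukocyte covariate they were Ccl3 -0.02, Ccl4 -0.07, Cxcl5 1.34, Cxcl9 0.11 and Ccl2 0.01, and with skeletal muscle Cxcl12 -0.03 and Ccl21a -0.01. With the number series as covariate and within the 10xx libraries alike they were Cxcl13 -0.40, Cxcl5 2.83, Cxcl1 1.0, Ccl7 0.32, Ccl2 0.32, Ccr3 -0.18, Ackr3 -0.16 and Ccr2 -0.15. The remainder were Cxcl10 -0.71, Ccr7 -0.56 and Cxcl2 1.2 with the covariate, and Cxcl10 -0.70, Ccr7 -0.55 and Cxcl2 1.21 within the 10xx libraries. With 1 library left out, the members that changed sign ran over these ranges: Ackr3 -0.18 to 0.30, Ccl2 -0.49 to 0.27, Ccl25 -0.19 to 0.03, Ccl27a -0.13 to 0.24, Ccl3 -0.63 to 0.38, Ccl4 -0.57 to 0.34, Ccl6 -0.27 to 0.38, Ccl7 -0.61 to 0.21, Ccl8 -1.01 to 0.21, Ccr1 -0.06 to 0.37, Ccr7 -0.31 to 0.45, Cxcl1 -0.92 to 0.52, Cxcl13 -0.26 to 1.71, Cxcl14 -0.02 to 0.51, Cxcl2 -1.14 to 0.46, Cxcl5 -2.62 to 2.49, Cxcl9 -1.06 to 1.12, Cxcr2 -0.18 to 0.31 and Cxcr3 -0.93 to 0.81. The others ran over Ackr2 0.39 to 1.05, Ackr4 0.67 to 1.28, Ccl11 0.36 to 0.91, Ccl17 -1.14 to -0.57, Ccl20 0.48 to 1.52, Ccl21a 0.36 to 1.0, Ccl22 -0.61 to -0.20, Ccl5 -1.54 to -0.20, Ccl9 0.11 to 0.66, Ccr2 0.11 to 0.72, Ccr3 0.09 to 1.08, Ccr9 -1.03 to -0.36, Cx3cl1 -0.64 to -0.33, Cx3cr1 0.14 to 0.33, Cxcl10 0.07 to 1.89, Cxcl12 0.06 to 0.68, Cxcl16 -0.45 to -0.18, Cxcl3 -1.87 to -0.96, Cxcr4 -0.48 to -0.14 and Cxcr6 0.10 to 0.92. Other scalings moved the median of all genes by under 0.01 on the log2 scale (-0.009 and -0.004). No marker list and no ligand and receptor pair passed its adjusted threshold under its alternatives (count of 0 throughout). No paired analysis was possible because the groups share no replicate number. With 5 libraries a group, the spread of these genes limits what can be seen.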
